A study of Ovis aries with 15 samples.

Results

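The 10 genes described here belong to the endothelium, the cell layer that lines blood vessels, and to the angiopoietin system that acts on it. They are PECAM1, CDH5, KDR, FLT1, TEK, TIE1, ANGPT1, ANGPT2, ANGPT4 and VWF. They were taken by name from the 9155 genes that the bovine array names, with every probe set whose only annotated symbol is 1 of the 10. This gave 16 of 24016 probe sets, of which 13 carried enough signal to be tested among 15981, and each of the 10 genes kept at least 1. The RNA came from longissimus dorsi (LD), the long muscle of the back, of Dorset/Suffolk/Rambouillet cross-bred sheep with no treatment. There were 3 fetal stages (80, 100 and 120 d of development) and 2 postnatal stages, newborn lambs 1 to 3 days old (150 d) and lambs of 12 weeks (230 d). Each stage had 3 animals, and every animal was run on an array of its own. By the study's methods the animals were male except for 1 female each at 100 d and 120 d, and no array can be matched to the sex of its animal. The series set out to describe how gene expression in this muscle changes from late fetal life to the young lamb.

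Vascular endothelial growth factors (VEGF) act on endothelial cells through receptors such as KDR and FLT1 and drive the sprouting of vessels. The angiopoietins act through a second receptor system, TEK (also called TIE2) with its relative TIE1. ANGPT1 activates TEK and steadies vessels, while ANGPT2 is mostly made by the endothelium itself and opposes or mimics ANGPT1 according to context. Muscle is densely supplied with capillaries, and its endothelium is held together by adherens junctions built on CDH5 and by contacts that contain PECAM1.

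Between 120 d and 150 d, the interval that holds birth, 5 of the 10 genes were called lower: PECAM1, CDH5, TEK, TIE1 and ANGPT4. Of all tested probe sets 6.78% were called lower. No member was called higher in this interval, beside 4.42% of all tested probe sets. The TEK call was lost in 8 of 15 runs that left out 1 array. None of the 5 calls held when only the 6 arrays of these 2 stages were fitted. FLT1 and ANGPT1 took another course. Both were called higher at 230 d than at 80 d, as were 10.5% of all tested probe sets. A second FLT1 probe set did not show the rise (log2 difference -0.08). The ANGPT1 call was lost in 5 of 15 runs that left out 1 array. Both calls were lost when arrays were scaled to the spiked hybridisation controls. The values are MAS5 signals, a brightness on a linear scale with every array scaled to the same mean, and a difference was called at an adjusted p under 0.01 in limma over all 15981 probe sets. A signal of 50 was used as the level under which a value was treated as near background. The tissue was measured whole, and each signal is relative to all RNA on its array. Fewer endothelial cells, less RNA per endothelial cell and a larger share of RNA from other cells therefore cannot be told apart. Since ovine RNA was hybridised to bovine probes, the signal of 1 probe set cannot be set against that of another.

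**Figure D1:**
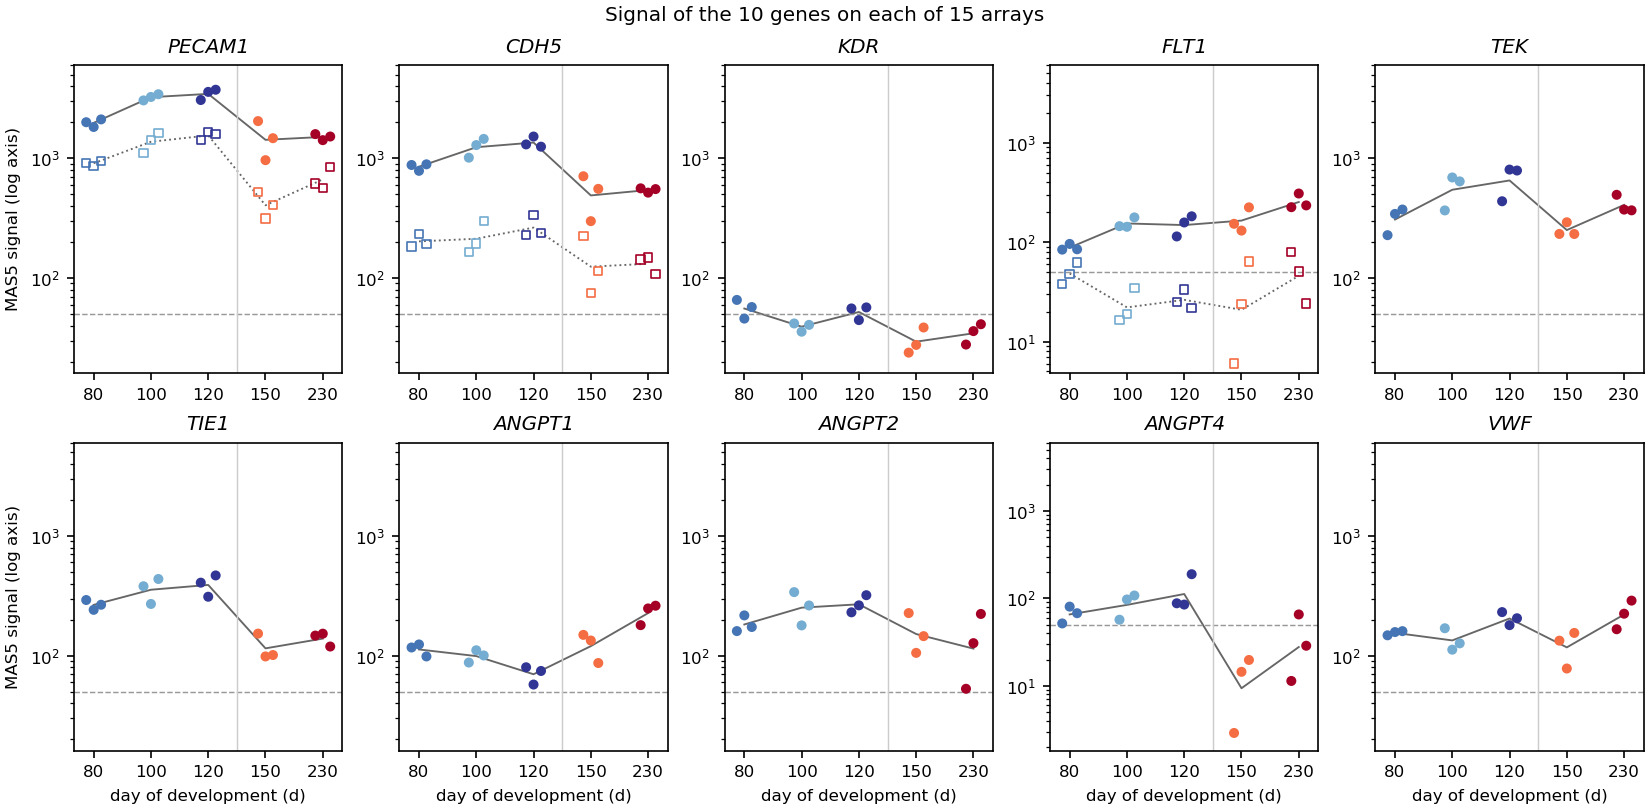
Signal (log axis) of the 10 genes on each of the 15 arrays against stage, with stages evenly spaced and not to scale in time. Filled circles are the probe set that stands for the gene, open squares its other tested probe set, lines join the stages' geometric means, the dashed line is a signal of 50 and the vertical line separates fetal from postnatal stages. PECAM1, CDH5, TEK, TIE1 and ANGPT4 were called lower between 120 d and 150 d, with no overlap of their arrays. KDR, ANGPT2 and VWF also drop there without overlap and were not called. Of all tested probe sets 23.0% are lower without overlap in this interval. ANGPT1 is lowest at 120 d and highest at 230 d.

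PECAM1 is an adhesion molecule of endothelial contacts that platelets and leukocytes also carry. Its signals on replicates 1, 2 and 3 were 2004.8, 1829.3 and 2116.8 at 80 d, 3050.3, 3259.2 and 3435.1 at 100 d, 3073.5, 3594.2 and 3745.6 at 120 d, 2048.2, 966 and 1474.5 at 150 d, and 1594.5, 1419.8 and 1522.4 at 230 d. All 6 arrays of 100 d and 120 d lay above all 9 others, and the newborn arrays were spread more widely than those of any other stage. From 120 d to 150 d PECAM1 fell by 1.28 on the log2 scale (SE 0.23, limma adjusted p = 0.0021), a 2.42-fold difference. Between 150 d and 230 d the log2 difference was 0.08 (adjusted p = 0.87). A second PECAM1 probe set fell by 1.94 over the interval (SE 0.23, adjusted p = 0.00016), from 1419.1 to 1666.8 at 120 d to 313.8 to 523.4 at 150 d. On this probe set the 3 arrays of 230 d, 567.6 to 847.1, all lay above the newborn arrays (log2 difference 0.72, adjusted p = 0.081), which was not so on the first.

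CDH5, or VE-cadherin, is the cadherin of endothelial junctions. Its signals were 880.4, 786.7 and 891.6 at 80 d, 1013.3, 1291.5 and 1454.1 at 100 d, 1307.8, 1522.3 and 1252.2 at 120 d, 708.6, 298.7 and 556 at 150 d, and 561.7, 517.2 and 553.6 at 230 d. As for PECAM1, the 6 arrays of 100 d and 120 d were the highest, and replicate 2 of the newborns was the lowest of all 15. CDH5 fell by 1.47 on the log2 scale from 120 d to 150 d (SE 0.27, limma adjusted p = 0.0022), a 2.77-fold difference, and the log2 difference from 150 d to 230 d was 0.15 (adjusted p = 0.78). Its second probe set, with signals of 75.4 to 338.4, had a log2 difference of -1.08 without overlap and was not called (adjusted p = 0.044).

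PECAM1 and CDH5 were the closest pair among the 10. Over the 15 arrays, with each gene centred on its own mean, their log2 signals differed by a root mean square of 0.158, and the next pairs were CDH5 with TIE1 at 0.325 and PECAM1 with TIE1 at 0.341. Among 7546 other genes named on the array, CDH5 was the nearest to PECAM1 and PECAM1 the nearest to CDH5. The next nearest to both was CD34, a surface glycoprotein of endothelial and blood-forming cells, at 0.183 from PECAM1 and 0.176 from CDH5. CMTM8 followed at 0.236 and 0.221. The points share 15 arrays and 5 stages, so these distances are a description.

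KDR (VEGFR2) is the main signalling receptor for VEGFA on the endothelium, and FLT1 (VEGFR1) binds VEGFA, VEGFB and PGF and in its soluble form holds VEGFA back. KDR had signals of 65.6, 45.8 and 57.2 at 80 d, 41.7, 35.6 and 40.6 at 100 d, 55.7, 44.5 and 56.8 at 120 d, 23.8, 27.6 and 38.6 at 150 d, and 27.8, 36 and 41.1 at 230 d. Only 4 of the 15 arrays reached 50, all of them at 80 d or 120 d, so no fold is given. The 120 d arrays lay above the newborn arrays, with a log2 difference of -0.82 (SE 0.23, limma adjusted p = 0.021) that was not called. A further KDR probe set stayed at 1 to 19.8 and was not tested.

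FLT1 had signals of 84, 95.9 and 84.7 at 80 d, 144.6, 142.5 and 177.1 at 100 d, 114, 157.5 and 181.7 at 120 d, 152.7, 130.5 and 223.6 at 150 d, and 224.4, 307.9 and 233.9 at 230 d. The 3 arrays of 80 d were the lowest of the 15 and those of 230 d the highest, while 100 d, 120 d and 150 d overlapped. FLT1 rose by 1.52 on the log2 scale from 80 d to 230 d (SE 0.24, limma adjusted p = 0.00033), a 2.87-fold difference, which was 0.84 and not called (adjusted p = 0.030) when arrays were scaled to the hybridisation controls. No single step between neighbouring stages was called. Across birth its log2 difference was 0.15 (adjusted p = 0.70), and -0.50 (adjusted p = 0.18) with the hybridisation controls. A second FLT1 probe set gave 6 to 78.9, reached 50 on 4 arrays and had a log2 difference of -0.08 from 80 d to 230 d (adjusted p = 0.94), so the rise was seen on 1 of the 2 tested probe sets. A further one, at 1.3 to 32.6, was not tested.

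TEK is the receptor of the angiopoietins, and TIE1 is its partner in the membrane with no ligand of its own among the classical angiopoietins. TEK had signals of 228.1, 343.4 and 373.6 at 80 d, 367.2, 692.4 and 642.1 at 100 d, 438.1, 805.7 and 791.3 at 120 d, 233.6, 292.3 and 233.4 at 150 d, and 496, 373.2 and 367.8 at 230 d. Replicate 1 was well below replicates 2 and 3 at 100 d and at 120 d, and the newborn arrays lay below those of 120 d and of 230 d. TEK fell by 1.38 on the log2 scale from 120 d to 150 d (SE 0.31, limma adjusted p = 0.0073), a 2.60-fold difference. This call was lost with array medians set equal (-1.25, adjusted p = 0.023), with quantile normalization (-1.23, adjusted p = 0.015) and without the filter on low signals (adjusted p = 0.018). The later difference to 230 d was 0.70 without overlap and was not called (SE 0.31, adjusted p = 0.20).

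TIE1 had signals of 291.4, 241.3 and 266 at 80 d, 379.9, 270.2 and 436.7 at 100 d, 407, 310.5 and 467.7 at 120 d, 152.7, 98.4 and 101.1 at 150 d, and 147, 152.5 and 119.1 at 230 d. All 9 fetal arrays lay above all 6 postnatal arrays. TIE1 fell by 1.76 on the log2 scale from 120 d to 150 d (SE 0.24, limma adjusted p = 0.00043), a 3.39-fold difference, and at 230 d it was 2.81-fold below 120 d (log2 difference -1.49, adjusted p = 0.00089). It was also below its 80 d level at 230 d, by 0.94 on the log2 scale (adjusted p = 0.0089), a call lost with quantile normalization (-0.81, adjusted p = 0.016) and without the filter on low signals (adjusted p = 0.020). The genes nearest to TIE1 over the 15 arrays were ITPR1, a calcium channel of the endoplasmic reticulum (0.223), and RAMP2, the partner of the adrenomedullin receptor of endothelial cells (0.243).

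The 3 angiopoietins differed in course. ANGPT1, which is made mainly by cells around the vessel, had signals of 116.9, 123.9 and 98.4 at 80 d, 87.5, 110.8 and 100.3 at 100 d, 79.9, 57.3 and 74.4 at 120 d, 149, 133.7 and 86.7 at 150 d, and 179.7, 247.8 and 261.2 at 230 d. The 120 d arrays were the lowest of the 15 and the 230 d arrays the highest. From 120 d to 230 d ANGPT1 rose by 1.70 on the log2 scale (SE 0.24, limma adjusted p = 0.00033), a 3.24-fold difference, of which 0.78 lay between 120 d and 150 d (adjusted p = 0.034) and 0.92 between 150 d and 230 d (adjusted p = 0.040), neither called alone. It was also higher at 230 d than at 80 d, by 1.01 (SE 0.24, adjusted p = 0.0052). With arrays scaled to the hybridisation controls the rise from 120 d was 0.80 and not called (adjusted p = 0.034), and that from 80 d was 0.33 (adjusted p = 0.38). The call from 80 d was also lost with array medians set equal (0.96, adjusted p = 0.013) and without the filter on low signals (adjusted p = 0.013).

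ANGPT2, which endothelial cells release from storage granules, had signals of 160.3, 216.8 and 173.4 at 80 d, 339.3, 178.8 and 262.4 at 100 d, 230, 263 and 319.8 at 120 d, 226.7, 105.4 and 145.4 at 150 d, and 52.8, 127.1 and 222.9 at 230 d. The newborn arrays lay just below those of 120 d, and the 3 lambs of 230 d spanned more than any other stage. None of its comparisons was called, with log2 differences from 120 d of -0.83 to 150 d (SE 0.45, limma adjusted p = 0.21) and -1.23 to 230 d (SE 0.45, adjusted p = 0.059).

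ANGPT4, a further TEK ligand, had signals of 51.8, 80.6 and 67.8 at 80 d, 57.1, 97.3 and 108 at 100 d, 88, 85.1 and 189.2 at 120 d, 2.9, 14.5 and 19.8 at 150 d, and 11.4, 65.6 and 28.8 at 230 d. All 9 fetal arrays reached 50, none of the newborn arrays did, and 1 of 3 did at 230 d. ANGPT4 fell from 120 d to 150 d (log2 difference -3.58, SE 0.71, limma adjusted p = 0.0036). Taken against a signal of 50, the newborn level was at least 2.25-fold lower, since values that low carry little information on size.

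VWF, the clotting protein that endothelial cells store and secrete and that megakaryocytes also make, had signals of 147.8, 157.3 and 160.1 at 80 d, 169.3, 112.1 and 126.6 at 100 d, 231, 179.7 and 205.2 at 120 d, 133.3, 78 and 154.7 at 150 d, and 166.1, 224 and 288.1 at 230 d. Its newborn arrays lay below those of 120 d and of 230 d, and the latter stages overlapped. Neither step was called, at log2 differences of -0.80 from 120 d to 150 d (SE 0.28, limma adjusted p = 0.055) and 0.91 from 150 d to 230 d (SE 0.28, adjusted p = 0.070). A second VWF probe set at 1.3 to 8.7 was not tested.

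Between neighbouring stages, members were called only in the interval across birth. There 5 of the 10 genes (6 of 13 probe sets) were called lower, where 6.78% of all tested probe sets were, and 0 were called higher, where 4.42% were. The members' median log2 difference was -1.05, beside -0.15 over all tested probe sets, and 8 of the 10 genes had all 3 newborn arrays below all 3 of 120 d (23.0% of all probe sets did). ANGPT1 had the reverse order (14.3% of all probe sets did), and FLT1 overlapped. Leaving out single arrays left 2 to 5 of these calls. Without 120 d replicate 3 there were 2, with PECAM1 at -1.22 (adjusted p = 0.011), TEK at -1.24 (adjusted p = 0.034) and ANGPT4 at -3.20 (adjusted p = 0.020) not called. Without 120 d replicate 2 there were 3, with CDH5 at -1.38 (adjusted p = 0.011) and TEK at -1.23 (adjusted p = 0.032) not called. The TEK call was also lost without 80 d replicate 2, 100 d replicate 3, 230 d replicate 2 or any 1 newborn array, at log2 differences of -1.49 to -1.32 and adjusted p of 0.0101 to 0.0233. When only the 6 arrays of these 2 stages were fitted, no member was called.

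**Figure D2:**
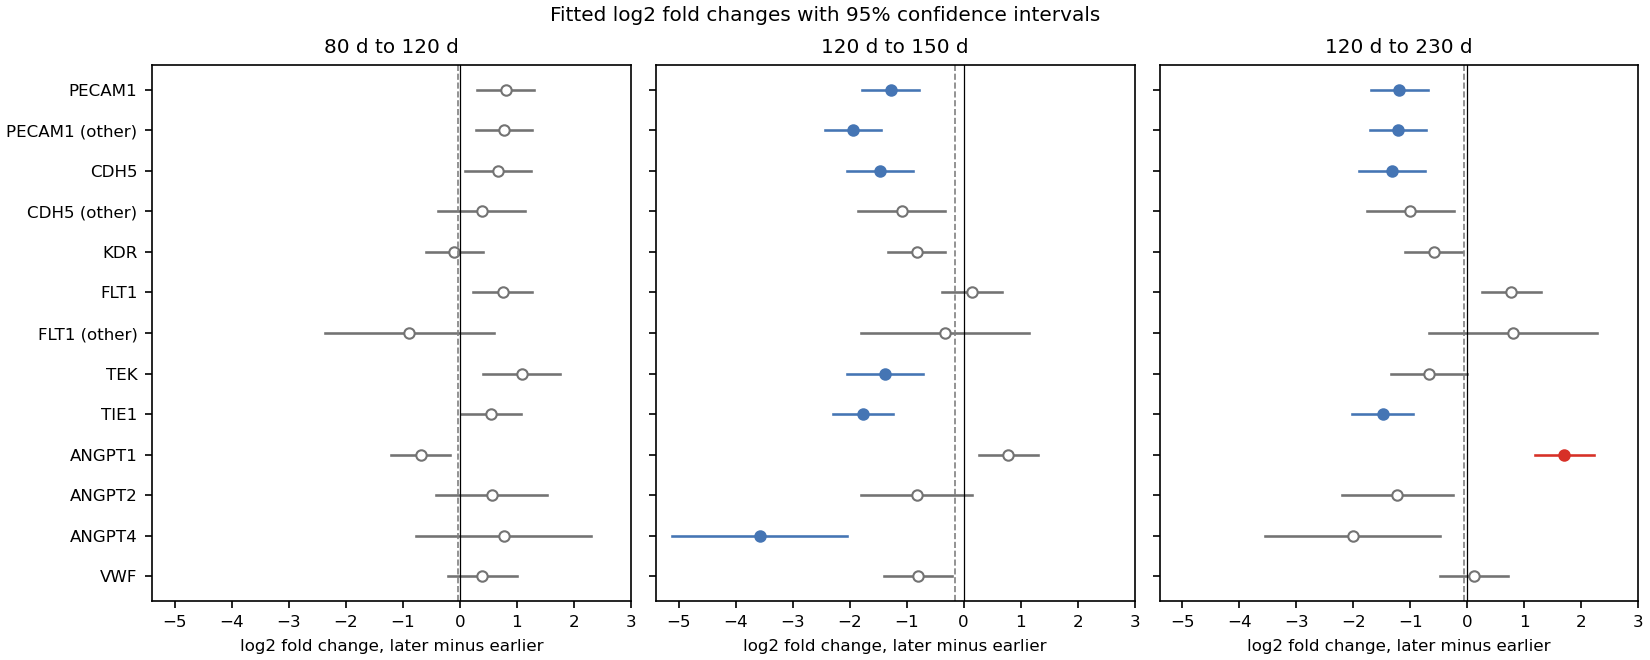
Fitted log2 fold changes of the 13 tested probe sets in 3 comparisons, as points with 95% confidence intervals from limma. Blue marks a call lower and red a call higher at an adjusted p under 0.01, open grey points were not called, and the dashed line is the median of all tested probe sets; 6 probe sets of 5 genes are blue between 120 d and 150 d, and none is coloured between 80 d and 120 d.

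Before birth the members had differences mostly in the other direction. From 80 d to 120 d, 8 of the 10 genes had all 3 arrays of 120 d above all 3 of 80 d, where 12.5% of all probe sets did, and ANGPT1 was the reverse, as were 14.2% of all probe sets. The median log2 difference was 0.62, beside -0.02 over all probe sets. None of these differences was called in limma, where 1.31% of all probe sets were; 6 of the 10 genes had an unadjusted p under 0.05, as did 16.8% of all probe sets. TEK gave 1.08 (SE 0.31, adjusted p = 0.074) and PECAM1 0.80 (SE 0.23, adjusted p = 0.077). Between 80 d and 100 d 0 members were called (0.125% of all probe sets were), and 4 had an unadjusted p under 0.05, as did 8.25% of all probe sets. Between 100 d and 120 d 0 were called (0.0563% of all probe sets were), and 1 had an unadjusted p under 0.05 (7.45% of all probe sets did).

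After birth 9 of the 10 genes had log2 differences above 0, with a median of 0.45, beside 0.07 over all probe sets. From 150 d to 230 d none was called, where 2.03% of all probe sets were, and 5 had an unadjusted p under 0.05, beside 22.8% of all probe sets. In 4 genes, FLT1, TEK, ANGPT1 and VWF, the 3 arrays of 230 d lay above the 3 newborn arrays, as in 14.0% of all probe sets, and in none did they lie below (9.94% of all probe sets). Compared with 120 d, the lambs of 230 d had 3 genes called lower (PECAM1, CDH5 and TIE1) and ANGPT1 higher, beside 8.43% and 5.81% of all probe sets. PECAM1 differed by -1.20 (SE 0.23, limma adjusted p = 0.0026) and CDH5 by -1.32 (SE 0.27, adjusted p = 0.0035). Without 120 d replicate 2, 120 d replicate 3 or 230 d replicate 2 the calls were 2, those of PECAM1 (-1.17 to -1.14, adjusted p = 0.0106 to 0.0124) and CDH5 (-1.38 to -1.23, adjusted p = 0.0104 to 0.0158) being lost. CDH5 alone was also lost without 120 d replicate 1 or 230 d replicate 1 or 3 (-1.34 to -1.33, adjusted p = 0.0101 to 0.0108). With arrays scaled to the hybridisation controls 7 members were called lower and 0 higher. Without that scaling, TEK was not called from 120 d to 230 d (-0.68, adjusted p = 0.13), nor was VWF (0.11, adjusted p = 0.80).

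From the youngest to the oldest stage, 80 d to 230 d, FLT1 and ANGPT1 were called higher and TIE1 lower, beside 10.5% and 14.4% of all probe sets. The call for FLT1 held in every run that left out 1 array. That for ANGPT1 was lost without any 1 of the 80 d arrays or without 230 d replicate 2 or 3 (log2 difference 0.91 to 1.08, limma adjusted p = 0.012 to 0.025). That for TIE1 was lost in 9 of the 15 runs, those without any 1 array of 80 d or 230 d and those without 100 d replicate 1, 120 d replicate 1 or 150 d replicate 3 (-1.005 to -0.83, adjusted p = 0.011 to 0.036). Over all 5 stages together, a moderated F-test in limma called 6 of the 10 genes (PECAM1, CDH5, FLT1, TIE1, ANGPT1 and ANGPT4), where 25.9% of all probe sets were called, and among the probe sets that stand for the genes its largest value was that of TIE1 (adjusted p = 0.0002). The second PECAM1 probe set had a larger one (adjusted p = 0.00012).

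Differences between the log2 signals of 2 genes on the same array show where related members changed unequally and do not depend on how the array was scaled by a constant. Since each gene has its own probe set, only changes in such a difference can be read, and its sign does not show which gene is the higher. The 9 fetal arrays were set against the 6 postnatal arrays in 5 pairs by a two-sided exact permutation test, whose smallest possible p is 0.0002, with the Benjamini-Hochberg adjustment over the 5. The arrays of each side come from 3 and 2 stages, which the test treats alike.

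ANGPT2 minus ANGPT1 averaged 1.33 ± 0.66 (SD, n = 9) in the fetuses and -0.33 ± 0.95 (n = 6) after birth, a difference of -1.65 (exact permutation, adjusted p = 0.0030). It was 0.46 to 0.82 at 80 d, 0.69 to 1.96 at 100 d and 1.53 to 2.20 at 120 d. After birth it was -0.34 to 0.75 at 150 d and -1.77 to -0.23 at 230 d. The newborn arrays overlapped those of 80 d and 100 d, and the arrays of 230 d did not overlap those of 120 d. VWF minus CDH5 rose by 1.12, from -2.80 ± 0.46 to -1.68 ± 0.53 (exact permutation, adjusted p = 0.0020). TIE1 minus TEK fell by 0.82, from -0.53 ± 0.59 to -1.34 ± 0.41 (exact permutation, adjusted p = 0.019). For FLT1 minus KDR no size is given, because KDR was under 50 on all 6 postnatal arrays and on 5 of the 9 fetal arrays. PECAM1 minus CDH5 differed by 0.19, from 1.32 ± 0.16 to 1.51 ± 0.10 (exact permutation, adjusted p = 0.025), but by -0.08 (adjusted p = 0.37) after quantile normalization and by 0.15 (adjusted p = 0.059) without 150 d replicate 2.

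**Figure D3:**
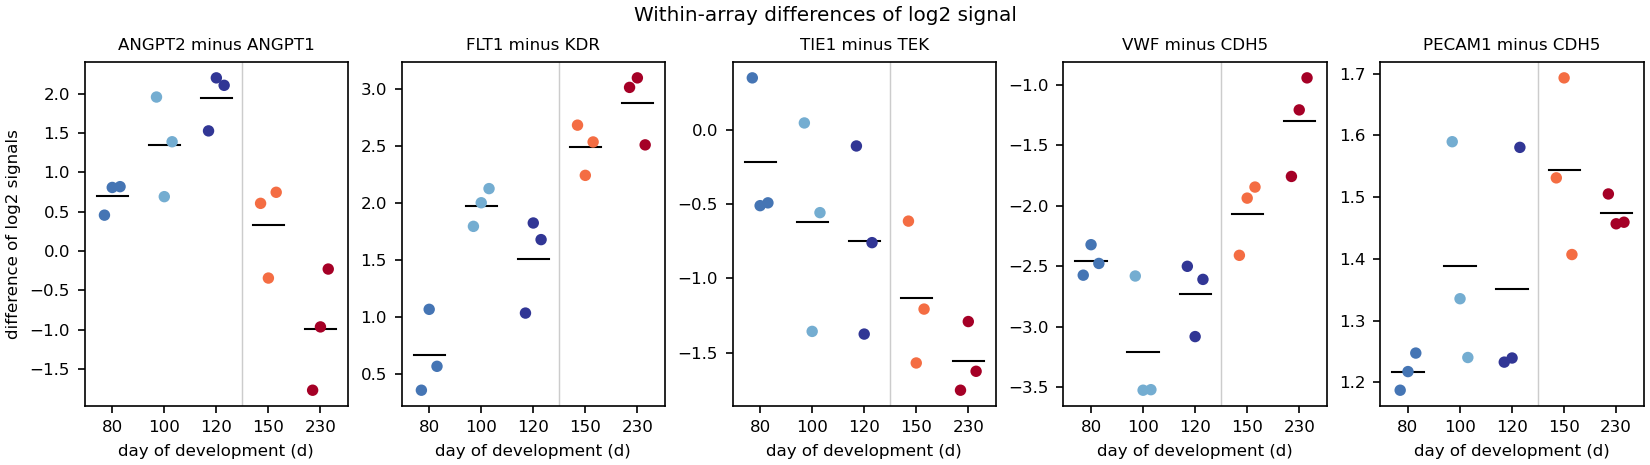
Difference of log2 signal between 2 genes on the same array for 5 pairs, by stage, with 1 point per array and a bar at the mean of each stage; stages are evenly spaced and the vertical line separates fetal from postnatal stages. ANGPT2 minus ANGPT1 is 1.53 to 2.20 at 120 d and -1.77 to -0.23 at 230 d, and VWF minus CDH5 is higher after birth on average; KDR lies under 50 on all 6 postnatal arrays, so the size of FLT1 minus KDR cannot be read, and 0 has no meaning across probe sets.

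The nearest genes of the other members over the 15 arrays were mostly not vascular by name. For TEK the nearest was DOCK9 at a root mean square of 0.298, followed by BROX (0.326) and the glucocorticoid receptor NR3C1 (0.327). For FLT1 it was PCMTD1 (0.267), for ANGPT1 ATG9A (0.261), for ANGPT2 STON1 (0.308) and for VWF DYNLT3 (0.247). ANGPT4, with its low newborn values, had no near neighbour, the closest being PRICKLE1 at 0.674. KDR varied little, and its nearest was SPTBN1 (0.205).

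Of 43 other endothelial genes listed, 33 were named on the array and 31 were tested. Between 120 d and 150 d 9 of these fell and 0 rose, with a median log2 difference of -0.83 and 28 of the 31 below 0, where 6.78% of all tested probe sets were called lower and 58.0% were below 0. LMO2, a transcription cofactor of blood and endothelium, went from 403 ± 51 (SD, n = 3) to 85.4 ± 17.7 (log2 difference -2.25, SE 0.44, limma adjusted p = 0.0036). RAMP2 went from 2254 ± 89 to 605 ± 27 (-1.90, SE 0.15, adjusted p = 1.9e-05). SOX18, a transcription factor of vessel and lymphatic development, was at -1.52 (SE 0.36, adjusted p = 0.0095) and FGD5, which activates CDC42 in endothelium, at -1.51 (SE 0.31, adjusted p = 0.0045). The 3 newborn arrays of RAMP2 lay at 587 to 637, all below the 2152 to 2320 of 120 d. The 5 others called lower were CD34, FLI1, RHOJ, TM4SF1 and VCAM1, the last to under 50. The other probe set of TM4SF1 gave -0.59 and was not called (adjusted p = 0.45). RASIP1 showed how probe sets can part: the one that stands for it gave -0.24, and another was called at -1.61 (adjusted p = 0.0088). CLDN5, the claudin of endothelial tight junctions, was at 131 ± 36 and 130 ± 54 and was not called. The count of 9 was 3, 4 or 2 without 120 d replicate 1, 2 or 3, and 4 without 150 d replicate 2. It was 6 without 80 d replicate 2 or 100 d replicate 3.

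**Figure D4:**
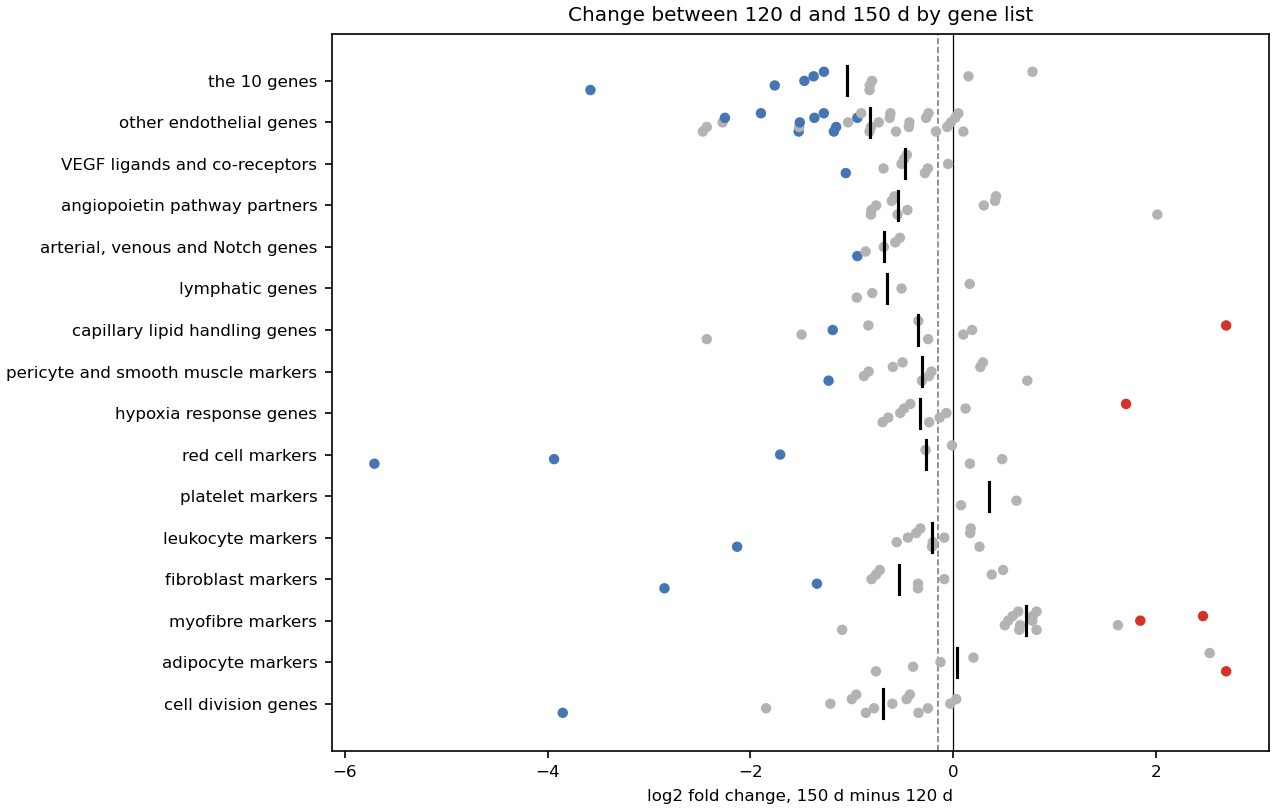
Log2 fold change from 120 d to 150 d of every tested gene, 1 point per gene, in the 10 genes and 15 lists of related or cell type genes; black bars are list medians, the dashed line is the median of all tested probe sets, blue and red mark calls lower and higher. The 10 genes have a median of -1.05 and the other endothelial genes of -0.83. The cell division, arterial and venous, lymphatic, angiopoietin partner and fibroblast lists lie at -0.69 to -0.54, and the myofibre markers at 0.72.

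Of 8 tested VEGF ligands and co-receptors, all 8 had log2 differences below 0 across birth, with a median of -0.47. VEGFC, the growth factor of lymphatic vessels, was the only one called across birth, from 309 ± 68 at 120 d to 147 ± 26 at 150 d (log2 difference -1.06, SE 0.19, limma adjusted p = 0.0019). VEGFA, the ligand of KDR and FLT1, was at 1333 ± 64 at 80 d and 5720 ± 465 at 120 d, a rise of 2.10 on the log2 scale (SE 0.22, adjusted p = 0.0002), and it was at 4902 ± 1221 and 4582 ± 290 after birth. Its other probe set differed by 1.41 from 80 d to 120 d and was not called (adjusted p = 0.14). NRP2, a co-receptor, fell from 120 d to 230 d by 1.00 (SE 0.23, adjusted p = 0.0077); its other probe set gave -0.79 (adjusted p = 0.017).

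Of 11 tested genes listed as partners of the angiopoietin system, angiopoietin-like genes among them, 0 were called across birth. Of all probe sets 6.78% were called lower there and 4.42% higher. The list had a median log2 difference of -0.55, with 7 of the 11 below 0. From 120 d to 230 d ANGPTL4, an angiopoietin-like inhibitor of lipoprotein lipase, was called higher (37.4 to 349 as geometric means, at least 6.98-fold against a signal of 50, log2 difference 3.22, SE 0.59, limma adjusted p = 0.0017). ANGPTL2 fell by 1.05 (SE 0.24, adjusted p = 0.0058) and the integrin chain ITGB1 by 0.96 (SE 0.15, adjusted p = 0.00068). PTPRB, the phosphatase VE-PTP that acts on TEK, had signals of 824 ± 146 at 120 d, then 466 ± 52 in the newborn and 966 ± 233 at 230 d. Neither step was called, its newborn arrays lay below those of both other stages, as those of TEK did, and it was called higher at 230 d than at 80 d (log2 difference 0.92, SE 0.21, adjusted p = 0.0045).

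Among 5 tested arterial, venous and Notch genes, NR2F2, a transcription factor of veins, fell across birth by 0.95 on the log2 scale (SE 0.18, limma adjusted p = 0.0029), while its other 2 probe sets, at -0.26 and -1.46, were not called. Of 4 tested lymphatic genes 0 were called across birth; CCL21, the chemokine of lymphatic endothelium, rose from 66.1 ± 15.6 at 80 d to 303 ± 51 at 100 d (log2 difference 2.21, SE 0.31, adjusted p = 0.0091) and fell from 120 d to 230 d (-2.03, SE 0.31, adjusted p = 0.00062). Of 9 tested capillary lipid handling genes FABP4, a fatty acid carrier of capillary endothelium and fat cells, rose across birth by 2.69 (SE 0.53, adjusted p = 0.0036). MEOX2, which with TCF15 sets fatty acid uptake in muscle capillaries, fell by 1.19 (SE 0.23, adjusted p = 0.0034). PLVAP, the protein of endothelial diaphragms, was called lower at 230 d than at 120 d (-3.82, SE 0.65, adjusted p = 0.0011; at least 5.11-fold against a signal of 50), but its other probe set differed by 0.10 (adjusted p = 0.94). Of 10 tested hypoxia response genes, EGLN3, a hydroxylase that marks HIF for breakdown, rose across birth by 1.70 (SE 0.32, adjusted p = 0.0027), a call lost with the hybridisation controls. Most of the list went the other way there, with 8 of the 10 genes below 0 and a median of -0.33. HIF1A had signals of 2384 ± 242 at 150 d and 1097 ± 48 at 230 d. EPAS1, the HIF subunit best known from endothelium, rose from 80 d to 120 d by 1.02 (SE 0.19, adjusted p = 0.0093) and from 150 d to 230 d by 0.99 (SE 0.19, adjusted p = 0.0088).

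Markers of other cells were counted in the same interval, beside the 6.78% of all probe sets called lower and the 4.42% called higher. Of 7 tested red cell markers 3 fell between 120 d and 150 d, with 5 of the 7 below 0 and a median log2 difference of -0.27. The summed signal of the 7 went from 13455 to 14298 at 120 d to 642 to 1390 at 150 d. At 120 d most of this sum was the signal of 1 HBB probe set. HBB, a beta globin by its annotation, was at 12548 ± 275 and then 249 ± 86 (log2 difference -5.71, SE 0.49, limma adjusted p = 2.9e-05). Its 3 probe sets did not move alike (-8.64 and -0.10 on the others). Of 11 tested pericyte and smooth muscle markers KCNJ8 fell (-1.23, SE 0.28, adjusted p = 0.0077), and of 11 leukocyte markers only CD3D was called lower (adjusted p = 0.0065), with signals of 36.5 to 58 at 120 d and 5.8 to 23 at 150 d, near background at both stages. The summed leukocyte signal overlapped, at 1197 to 1289 and 926 to 1380. Of 2 tested platelet markers 0 were called; their summed signal was 40.3 to 132 at 120 d and 90.8 to 136 at 150 d. The single calls across birth of VEGFC, NR2F2, MEOX2, KCNJ8 and CD3D were lost when array medians were set equal. Of 10 fibroblast markers 2 fell, with 8 of the 10 below 0 and a median log2 difference of -0.54. Of 14 cell division genes 1 fell, a share near that of all probe sets, but 13 of the 14 were below 0 and their median was -0.69. The single calls among the pericyte and leukocyte markers were likewise near the share of all probe sets, with medians of -0.31 and -0.21. Of 6 adipocyte markers FABP4 rose, and of 14 myofibre markers 2 rose, with a median of 0.72. The summed myofibre signal went from 159550 to 203562 at 120 d to 238983 to 371725 at 150 d, and the summed signal of the 31 other endothelial genes from 10986 to 11431 at 120 d to 4534 to 6977. The part of these in the members' differences was not tested.

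The arrays were alike in overall level, with median signals of 51.4 to 69.4, and none was identical to another. The spiked hybridisation controls averaged 9.95 ± 0.17 (log2 signal, SD, n = 3) at 120 d, 10.60 ± 0.28 at 150 d and 10.85 ± 0.20 at 230 d. Scaling arrays to these controls shifted the median log2 difference of all probe sets from -0.15 to -0.81 across birth and from -0.06 to -0.96 from 120 d to 230 d. The 3'/5' ratio of the beta-actin control probe sets, a sign of RNA integrity, averaged 1.89 ± 0.29 at 80 d, then 1.53 ± 0.24 and 1.03 ± 0.10 at the later fetal stages, and 0.910 ± 0.052 and 0.995 ± 0.054 after birth. The same ratio for GAPDH did not show this course. It averaged 1.09 ± 0.12, 1.13 ± 0.04 and 1.14 ± 0.05 at the fetal stages, and 1.21 ± 0.12 and 1.16 ± 0.09 after birth. The part of RNA integrity in the members' differences was not tested.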

How the data were processed

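LD muscle RNA of 15 sheep was hybridised to Affymetrix bovine genome arrays. The intensities used are MAS5 signals as deposited by the authors, who corrected background by region, summarised matched and mismatched probes with Tukey's biweight and scaled all arrays to 1 mean (trimmed mean checked: 200.06 to 200.09). No MAS5 version is stated. Of 24016 probe sets (112 controls removed), 15981 with a signal of 0.25 of the trimmed mean (50) on at least 3 arrays were tested, in place of detection calls. Before log2, 2 values under 0.1 were raised to it. Stages came from the labels, which do not say whether animals of a stage shared a litter.

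The stages' means were fitted in limma 3.58.1 (R 4.3.3; lmFit, eBayes, 10 residual degrees of freedom) and p-values adjusted by Benjamini-Hochberg over all probe sets of a contrast, with calls at 0.01. The 7 contrasts share arrays. Genes were named from probe sets with 1 annotated symbol, and of several the one brightest on average stands for the gene. Means and SDs are of linear signals. A fold is given only where both geometric means reached 50, otherwise a bound against 50. Named are all members, up to 4 genes per related list called across birth and up to 2 in other contrasts, and genes nearest to each member (not all printed); others were chosen after their values were seen. Members and lists were chosen with earlier results of these data known. On simulated data with 50 changed probe sets per fold size among 15981, the 120 d to 150 d test recovered 2% at 2-fold, 34% at 3-fold and 54% at 4-fold. The Benjamini-Hochberg threshold depends on how many probe sets change. In the data 1789 were called, many more than were changed in the simulation, so these shares need not hold there. The number of arrays limits the precision. Alternatives covered scaling, an offset, the filter, the arrays fitted, trended variances, a replicate block and leaving out arrays. Sequences were not used here.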

Additional observations from a re-analysis of the deposited data

How the results depend on the processing

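The alternatives were run on 21 log2 differences of members, all 13 probe sets across birth and those called from 120 d or 80 d to 230 d. Of 186 values other than those leaving out an array, 159 kept their direction and their side of the threshold, 23 lost a call, 3 gained one (all across birth) and 1 turned. Fitting only the 6 arrays of the compared stages left 0 members called from 120 d to 150 d, 0 from 120 d to 230 d and 1 from 80 d to 230 d, and it called 2 of all probe sets across birth (1789 on all 15 arrays). Without the filter on low signals 1 member was called from 80 d to 230 d, and 1110 of all probe sets across birth. With arrays scaled to the hybridisation controls 7 members were called from 120 d to 230 d, all lower, and FLT1 across birth turned to -0.50. That scaling also moved the split of all calls across birth from 706 higher and 1083 lower to 162 and 3870, and quantile normalization moved it to 700 and 793, equal medians to 785 and 657. Other endothelial genes called lower across birth (9) numbered 21 with the hybridisation controls, 5 without the filter and 0 on the 6 arrays. PECAM1 minus CDH5 turned to -0.0778 under quantile normalization.

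Leaving out 1 array at a time gave 2 to 5 members called from 120 d to 150 d, 2 to 4 from 120 d to 230 d and 1 to 3 from 80 d to 230 d. FLT1 across birth ranged from -0.071 to 0.317, turning without 120 d replicate 1 (-0.040) and without 150 d replicate 3, and its second probe set from -1.14 to 0.567. PECAM1 minus CDH5 ranged from 0.153 to 0.224. ANGPT2 minus ANGPT1, VWF minus CDH5 and TIE1 minus TEK kept their direction and an adjusted p under 0.05 in all 15 runs. Why these calls moved was not tested, beyond the smaller number of arrays. In 30 same-numbered pairs of arrays the correlations of deviations were -0.053 to 0.207 (median 0.035), with 6 over 0.1. Without values for differently numbered pairs, these cannot show whether arrays of the same replicate number share an effect. The fit with a replicate block called 5 members across birth, 4 from 120 d to 230 d and 3 from 80 d to 230 d, and 1702 of all probe sets across birth. KDR and the newborn values of ANGPT4 lay near background, which limits what their size can show.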
